A study of Homo sapiens with 9 samples.

Results

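The estrogen-related receptors (ERRs), their PGC-1 coactivators and the nuclear factors that act with them in mitochondrial biogenesis were followed in the gastrointestinal stromal tumor (GIST) cell line GIST-T1. The 10 genes were chosen by symbol from the 61209 rows of the count table: the ERR genes ESRRA and ESRRG, the ESRRA pseudogene ESRRAP1, the PGC-1 family genes PPARGC1A, PPARGC1B and PPRC1, the corepressor gene NRIP1, and NRF1, GABPA and TFAM. All 10 had a row and 9 passed the filter on low counts. The exception was ESRRG. GIST-T1 is labelled as sensitive to imatinib and as carrying KIT exon 11 del560-79, which all libraries share. Polyadenylated RNA was sequenced in bulk from 3 groups of 3 libraries, harvested 48 h after transfection: non-target siRNA (siNC, S1 to S3), ERRα siRNA (siERRα, S4 to S6), and non-target siRNA with imatinib at 50 nM (S16 to S18). Imatinib is an inhibitor of the KIT receptor tyrosine kinase. The imatinib libraries are labelled 48H, and whether this is the time of exposure to the drug is not stated in the sources used here. A single ERRα siRNA group and a single cell line were used, and no library combined the ERRα siRNA with imatinib. The sources used here do not say whether the libraries of a group were separate cultures, and each p-value reflects library-to-library spread only, which may be technical.

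ERRα, the product of ESRRA, belongs to the orphan receptors of the nuclear receptor family. It has no known natural hormone switch, and its activity depends largely on coactivators, of which PGC-1α and PGC-1β are the best known. PGC-1 proteins do not bind DNA themselves. They dock on ERRs and on the nuclear respiratory factors NRF1 and GABP to drive nuclear genes for respiration, among them TFAM, which packages mitochondrial DNA and starts its transcription. ERRα also regulates its own gene and those of energy metabolism in heart, muscle and brown fat.

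Knockdown removed nearly all ESRRA mRNA but moved few of the coactivator and nuclear factor genes, whereas more of them were lower with imatinib. A gene was called at an adjusted p under 0.05 in edgeR's quasi-likelihood test, with adjustment over all 16976 genes tested. Over all genes, 7072 were called with imatinib and 4064 after knockdown, so a larger number with imatinib is not particular to this group. Against siNC, siERRα libraries had 2 of the 9 tested genes lower (ESRRA and ESRRAP1) and 1 higher (PPRC1). Across all genes, 12.6% were called lower and 11.4% higher in that comparison. With imatinib, 5 of 9 were lower (ESRRA, ESRRAP1, PPARGC1B, PPRC1 and NRIP1) and 0 higher (0 also at an unadjusted p under 0.05, in DESeq2 and in limma-voom), where 20.3% of all genes were called lower and 21.4% higher. Between siERRα and imatinib, 2 of 9 were lower (ESRRA and ESRRAP1) and 4 higher (PPARGC1B, PPRC1, NRIP1 and TFAM), where 26.6% of all genes were called lower and 25.6% higher. The last of these comparisons is the test of the difference between knockdown and imatinib, since both were set against the same siNC libraries. ESRRAP1 passed the filter on low counts only through siNC, so its calls as lower were favored in advance. Without ESRRA and ESRRAP1, 0 of 7 genes were lower and 1 higher after knockdown. With imatinib 3 were lower and 0 higher, and between siERRα and imatinib 0 were lower and 4 higher. Leaving ESRRA and its pseudogene aside, the median log2 fold change of the other 7 genes was 0.16 after knockdown, −0.25 with imatinib and 0.41 between them, where the medians over all genes were 0.009, 0.002 and −0.004.

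Library totals ran from 37527236 to 49363002 counts. GIST identity was checked by KIT, at 1305, 1366 and 1526 CPM (counts divided by the TMM-scaled library total, with TMM evening out library composition) on average in siNC, siERRα and imatinib, and by ANO1, a chloride channel used to diagnose GIST, at 383.9, 406.2 and 585.4 CPM. All 10 GIST markers were expressed, and none of 10 leukocyte, endothelial, epithelial and breast markers passed 1.084 CPM in any library. Libraries of a group differed along the GC content of transcripts. Across 13138 genes, the deviation of a library from the mean of its partners had a Spearman rho with GC content of −0.56, 0.604 and −0.222 for S1, S2 and S3, of 0.521, −0.647 and 0.379 for S4, S5 and S6, and of 0.179, −0.473 and 0.332 for S16, S17 and S18. The library with the largest rho in size in each group was left out in a further fit, which removed S2, S5 and S17. This left S1 and S3, with negative rho, against S4, S6, S16 and S18, with positive rho. GC content may thus not be balanced between siNC and the other groups in that fit. It called 5140 of all genes after knockdown (4064 with all libraries) and 7695 with imatinib (7072). The part of GC content in its added calls was not tested. By the chi-square per degree of freedom between libraries, S16 was farther from its partners (14.7 and 11.1) than these were from each other (7.96), so the library to leave out with imatinib depends on the measure. Where an ERR or PGC-1 gene changed its sign or call without S2, S5 and S17, its value in that fit is given below. The other values of these genes kept sign and call, though their sizes moved, as for PPRC1 with imatinib (−0.172 without the 3 libraries, adjusted p = 0.0209). Counts of the gene lists that moved by more than 1.5 times against siNC are also given.

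The receptor gene and its pseudogene are shown first, because a read from either can resemble the other. ESRRAP1 is a processed pseudogene, an intronless copy of ESRRA mRNA reinserted elsewhere in the genome. It lies at chr13:19560013-19561269 on the minus strand of GRCh38 as a single exon, while ESRRA lies at chr11:64305497-64316743 on the plus strand with 7 exons in its canonical transcript. Over 1256 aligned bases the copy had 95.7% identity with the ESRRA transcript, with 54 differing bases, and 7 of its 1158 windows of 100 bases were identical to ESRRA. The stretch below, from exon 2 of ESRRA (chr11:64307393-64307452) and the matching part of ESRRAP1 (chr13:19560986-19561045), shows how alike they are. Capitals mark the 3 positions of 60 that differ.
ESRRA: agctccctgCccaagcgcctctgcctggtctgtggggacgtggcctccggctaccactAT
ESRRAP1: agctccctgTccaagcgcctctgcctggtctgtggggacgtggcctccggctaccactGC

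ESRRA stood at 40.7, 44.7 and 40.9 CPM in siNC, at 1.41, 0.757 and 1.34 CPM in siERRα and at 30.4, 31.99 and 35.6 CPM with imatinib. The ranges of the 3 groups did not overlap. After knockdown 2.77% of the control level was left, or −5.18 on the log2 scale (standard error 0.134, adjusted p = 6.28e-15). The targeted transcript thus bore out the labels of the siERRα libraries. Imatinib left 77.5% of the control level (log2 fold change −0.37, 95% interval −0.56 to −0.17, adjusted p = 0.00383). In bulk RNA, less message per cell and fewer expressing cells cannot be told apart.

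ESRRAP1 had 24, 25 and 13 counts in siNC, 5, 3 and 5 with imatinib and 0 in all siERRα libraries. The groups did not overlap. The siERRα level was at least 20.9-fold lower than siNC, taking a floor of 3 counts over the group. ESRRAP1 passed the filter on low counts only through its siNC libraries, which favored calls of it as lower. With imatinib the log2 fold change was −1.97 (standard error 0.505, adjusted p = 0.00468), and it was −1.51 with an adjusted p of 0.0529 when S2, S5 and S17 were left out. Counts of ESRRAP1 made up 1.09% of all ESRRA and ESRRAP1 counts in siNC (62 of 5702, exact 95% interval 0.835 to 1.39%) and 0.359% with imatinib (13 of 3625, 0.191 to 0.613%). In siERRα the share was 0 of 155 counts, which allows up to 1.94% by a floor of 3 counts and up to 2.35% by the exact interval, so a share as in siNC was within what this depth allows. These intervals cover counting error only. How the authors' counting treated reads that fit both genes is not stated in the sources used here, so ESRRAP1 values are uncertain and may include reads of ESRRA.

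The other ERR genes were at or under the floor. ESRRG, which encodes ERRγ (chr1:216503246-217137755, minus strand), had 2 counts in S3 and 0 in the other 8 libraries. ESRRB, which encodes ERRβ and was read for completeness, had 0, 2 and 1 counts in siNC and 0 elsewhere. No count of either was present after ERRα knockdown, at totals of 38408818 to 48002699 counts.

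**Figure D1:**
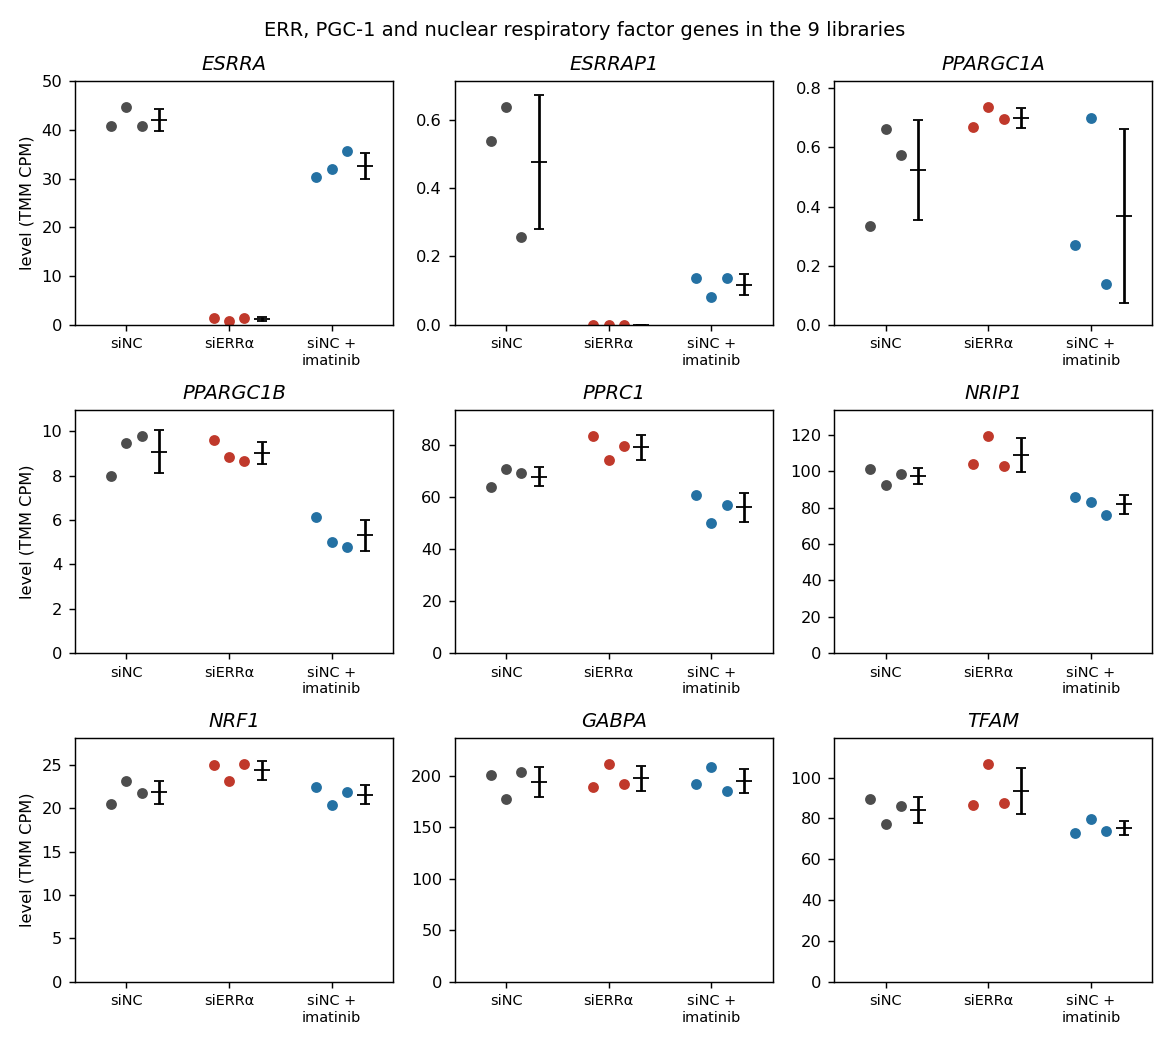
Level in CPM (TMM) of the 9 tested genes in each library (points), with the mean and SD of each group of 3 libraries (line and bar to the right of the points). Axes start at 0 and differ between panels. ESRRA after knockdown (0.757 to 1.41 CPM) lies under every other library, PPARGC1B is low only with imatinib (4.78 to 6.13 CPM), and GABPA overlaps in all groups.

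The PGC-1 coactivators differed from each other both in level and in response. PPARGC1A encodes PGC-1α, the member that cold and exercise induce (chr4:23755041-23904089, minus strand). It was near the limit of detection, with 15, 26 and 29 counts in siNC, 32, 35 and 27 in siERRα and 10, 26 and 5 with imatinib, or 0.336, 0.662 and 0.576 CPM, 0.671, 0.736 and 0.695 CPM, and 0.271, 0.701 and 0.137 CPM. The siERRα libraries lay above all siNC libraries by a small margin, while the imatinib libraries spread across both groups, with S17 far above S16 and S18. No comparison passed the threshold. The log2 fold change was 0.42 after knockdown (95% interval −0.38 to 1.22, adjusted p = 0.474) and −0.49 with imatinib (−1.39 to 0.41, adjusted p = 0.385). Between siERRα and imatinib it was 0.91 (0.05 to 1.78, adjusted p = 0.0718). The calls moved with imatinib library S17 and with the method. Without S17, PPARGC1A fell by 1.34 with imatinib (adjusted p = 0.0258), and siERRα exceeded imatinib by 1.76 (adjusted p = 0.0029). Without S2, S5 and S17 together these values were −1.16 (adjusted p = 0.0663) and 1.73 (adjusted p = 0.0045). With S17 kept, siERRα against imatinib was called by limma-voom (adjusted p = 0.026), without the filter (0.0373) and with a replicate block (0.0435). The other imatinib libraries held only 10 and 5 counts.

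PPARGC1B encodes PGC-1β, the closest relative of PGC-1α (chr5:149730298-149855022, plus strand). It stood at 7.99, 9.47 and 9.81 CPM in siNC, at 9.60, 8.84 and 8.65 CPM in siERRα and at 6.13, 5.01 and 4.78 CPM with imatinib. All imatinib libraries were below all others, and the siERRα libraries lay within the siNC range. Imatinib lowered it to 58.4% of the control level (log2 fold change −0.78, standard error 0.115, adjusted p = 2.21e-05), the largest fold change with imatinib among the 7 genes other than ESRRA and its pseudogene when all libraries are used. Without S17, PPARGC1A fell further, at −1.34 (adjusted p = 0.0258). After knockdown the log2 fold change was −0.01, with a 95% interval of −0.23 to 0.22 (adjusted p = 0.968). The difference between siERRα and imatinib was 0.77 on the log2 scale (standard error 0.115, adjusted p = 1.49e-05).

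PPRC1 encodes PRC, the PGC-1 family member that responds to serum and growth signals (chr10:102132994-102150333, plus strand). Its level was 63.6, 70.6 and 69.0 CPM in siNC, 83.5, 74.0 and 79.4 CPM in siERRα and 60.9, 50.0 and 57.0 CPM with imatinib. The groups did not overlap, with siERRα highest and imatinib lowest. It rose by a log2 fold change of 0.22 after knockdown (95% interval 0.07 to 0.37, adjusted p = 0.0331) and fell by 0.28 with imatinib (standard error 0.0738, adjusted p = 0.00548). The effects differed by 0.50 (adjusted p = 1.38e-05). The rise after knockdown was no longer called when any 1 of S1, S3, S4, S6 or S18 was left out (adjusted p of 0.151, 0.0931, 0.141, 0.11 and 0.0577), and it was 0.295 with an adjusted p of 0.000369 when S2, S5 and S17 were all left out.

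NRIP1 encodes RIP140, a corepressor that opposes PGC-1 on ERR target genes (chr21:14961235-15065936, minus strand). It stood at 101.1, 92.3 and 98.4 CPM in siNC, 104.0, 119.5 and 102.7 CPM in siERRα and 86.0, 82.9 and 76.2 CPM with imatinib. The 3 groups did not overlap. With imatinib it fell by 0.25 on the log2 scale (standard error 0.0685, adjusted p = 0.00591). After knockdown the log2 fold change of 0.16 did not pass (adjusted p = 0.0967), and it was 0.05 without S2, S5 and S17 (adjusted p = 0.565). The effects differed by 0.41 (adjusted p = 4.74e-05). Coactivators PPARGC1B and PPRC1 and the corepressor NRIP1 were thus all lower with imatinib.

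NRF1 and GABPA, which encode DNA-binding factors that act with PGC-1, were not called against siNC, and neither was TFAM. Promoters of the 10 genes were searched for elements that NRF1, GABP and the ERRs read, and also for the CRE and the E-box. The search ran on both strands of RefSeq promoter windows of 300 bases (GRCh38.p14). It covered 18 promoters of 8 of the 10 genes, with ESRRAP1 and NRF1 not matched. The NRF1 element GCGCNNGCGC was present in the promoters of ESRRA, TFAM and PPARGC1A and in 8.32% of all 35116 promoters. The ETS element CCGGAAG, which GABP reads, was present in that of GABPA and in 10.26% of all. Neither the ERR response element TCAAGGTCA (0.35% of all promoters) nor the CRE TGACGTCA (1.85%) was found, and the E-box CACGTG (7.26%) was found in PPARGC1A. Windows of 30 bases around 3 of these matches follow in gene orientation, with the element in capitals (on the opposite strand for GABPA). They lie, in this order, at chr11:64305421-64305450, chr10:58385337-58385366 and chr21:25734894-25734923. A match is a description of letters and not of binding.
ESRRA: tcgtccgggcGCGCAGGCGCcgcccgcccc
TFAM: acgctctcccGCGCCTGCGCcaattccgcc
GABPA: acctccgctctaCTTCCGGccctggctccg

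NRF1, nuclear respiratory factor 1 (chr7:129611720-129757082, plus strand), stood at 20.5, 23.2 and 21.8 CPM in siNC, 25.0, 23.1 and 25.1 CPM in siERRα and 22.5, 20.3 and 21.9 CPM with imatinib. The siERRα libraries overlapped siNC at the lower end only, and the imatinib libraries overlapped siNC. The log2 fold changes were 0.16 after knockdown (95% interval 0.01 to 0.32, adjusted p = 0.129) and −0.02 with imatinib (−0.17 to 0.14, adjusted p = 0.89). Between siERRα and imatinib it was 0.18 (adjusted p = 0.0553), and 0.21 without S5 (adjusted p = 0.027). Without S2, S5 and S17 the knockdown value was 0.24 and was called (adjusted p = 0.0128).

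GABPA encodes the DNA-binding subunit of GABP, also named NRF-2 (chr21:25734570-25772460, plus strand). It held at 200.5, 177.2 and 204.0 CPM in siNC, 189.2, 211.2 and 191.7 CPM in siERRα and 191.8, 207.9 and 185.0 CPM with imatinib. The groups overlapped throughout. The log2 fold change was 0.03 after knockdown (95% interval −0.11 to 0.16), 0.01 with imatinib (−0.13 to 0.14) and 0.02 between them (−0.12 to 0.16).

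TFAM (chr10:58385345-58399220, plus strand) stood at 89.5, 77.2 and 86.2 CPM in siNC, 86.5, 106.6 and 87.6 CPM in siERRα and 72.9, 79.5 and 73.6 CPM with imatinib. S5 was highest of all libraries and S2 lowest in siNC. Neither comparison with siNC passed, with log2 fold changes of 0.15 after knockdown (adjusted p = 0.181) and −0.16 with imatinib (adjusted p = 0.105). Between siERRα and imatinib the groups did not overlap, and TFAM was higher in siERRα by 0.31 (95% interval 0.15 to 0.48, adjusted p = 0.00234). The value with imatinib was called when S2 (−0.225, adjusted p = 0.0291) or S5 (−0.16, adjusted p = 0.0279) was left out. With S2, S5 and S17 left out, TFAM was at −0.015 after knockdown (adjusted p = 0.869) and −0.26 with imatinib (adjusted p = 0.000223).

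**Figure D2:**
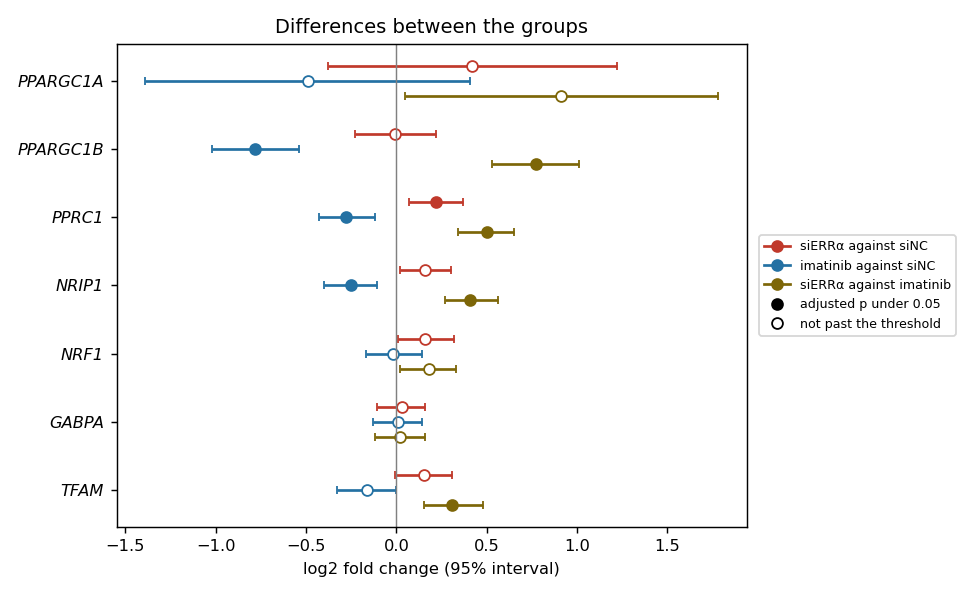
Log2 fold change with its 95% interval for the 7 genes other than ESRRA and ESRRAP1 in the 3 comparisons (colors), from edgeR. Filled points have an adjusted p under 0.05. PPARGC1B, PPRC1 and NRIP1 lie below 0 with imatinib, at −0.78, −0.28 and −0.25, while after knockdown only PPRC1, at 0.22, is filled.

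Compared per kilobase of exon, which makes levels of different genes roughly comparable, the genes ranged over nearly 3 orders of magnitude in siNC. The length was that of all annotated exons of a gene together, 3101 bases for ESRRA and 5282 for TFAM. Their canonical transcripts had 2274 and 5025 bases. The order of close neighbors, such as TFAM and ESRRA, thus depends on the length used. GABPA was highest at 33.8 ± 2.53 CPM per kb (SD, n = 3), followed by TFAM at 15.97 ± 1.20, ESRRA at 13.6 ± 0.723, NRIP1 at 11.45 ± 0.531 and PPRC1 at 11.1 ± 0.6002. The ranges of NRIP1 and PPRC1 overlapped, while the other neighbors in this order did not. NRF1 followed at 5.30 ± 0.321 CPM per kb, PPARGC1B at 0.705 ± 0.0750, ESRRAP1 at 0.380 ± 0.156 and PPARGC1A at 0.0482 ± 0.0156. PRC was therefore the most abundant PGC-1 family transcript in GIST-T1, and PGC-1α the least. Knockdown took ESRRA from 13.6 to 0.376 ± 0.115 CPM per kb, under PPARGC1B at 0.7005 ± 0.0392. In percentiles over 16828 genes ranked by this level, ESRRA moved from 79.8 in siNC to 21.1 in siERRα and 75.4 with imatinib, and PPARGC1A lay at 2.5, 4.3 and 1.4. With imatinib ESRRA stood at 10.5 ± 0.868, NRIP1 at 9.61 ± 0.593 and PPRC1 at 9.18 ± 0.901 CPM per kb, and neighbors among these overlapped.

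**Figure D3:**
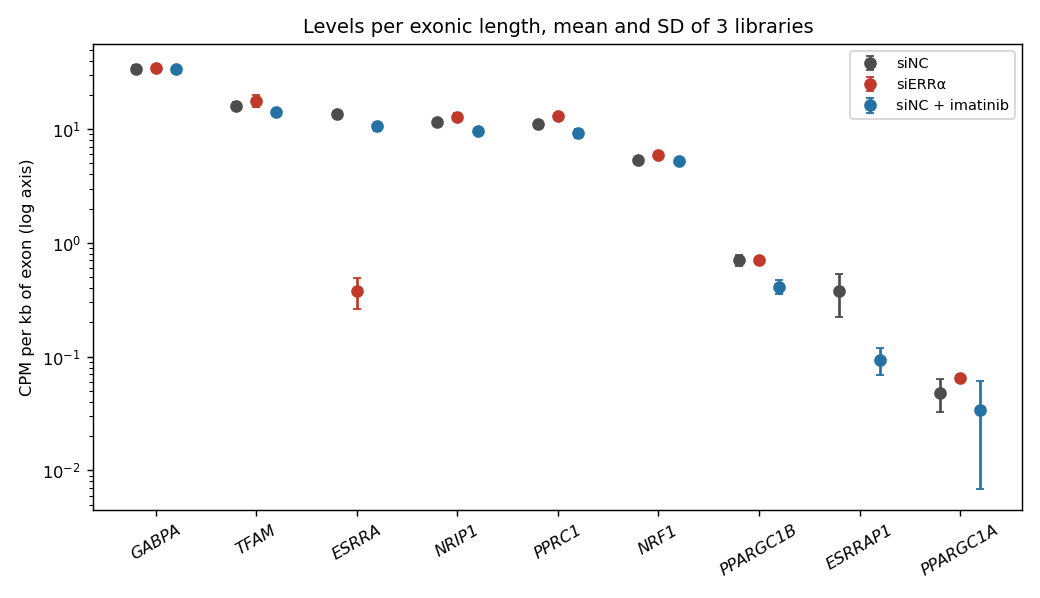
Mean level with SD of 3 libraries in CPM per kb of exon (log axis) for the tested genes in each group, ordered by siNC. ESRRA drops from 13.6 to 0.376 in siERRα. ESRRAP1 has no siERRα point because it had no counts there.

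In S2, S5 and S17, the smaller differences within groups ran with the GC content of the transcripts. These libraries were picked for their rho with GC content, which favored such an order. Canonical transcripts of TFAM, GABPA and NRIP1 had 36.0%, 36.7% and 38.8% GC, and those of NRF1, PPARGC1B and PPRC1 49.55%, 50.5% and 56.7%. In S5, TFAM, GABPA and NRIP1 were above the mean of the siERRα group by 0.19, 0.10 and 0.14 on the log2 scale, and NRF1, PPARGC1B and PPRC1 were below it, at −0.08, −0.03 and −0.09. S17 had the same signs for all 6 genes, and S2 had the opposite signs for all 6. S1 and S4 also split TFAM, GABPA and NRIP1 from the other genes by sign. The remaining libraries did not do so for every gene. PPARGC1B was at 0.11 in S3, −0.06 in S6 and −0.14 in S18, and NRIP1 was at 0.08 in S16. The siERRα fold changes had a Spearman rho of 0.007 with GC content across 13138 genes, and those of imatinib 0.238. The part of GC content in the fold changes of single genes was not tested. Without S2, S5 and S17, the tested genes called were 4 after knockdown (against 3 with all libraries) and 5 with imatinib (also 5).

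**Figure D4:**
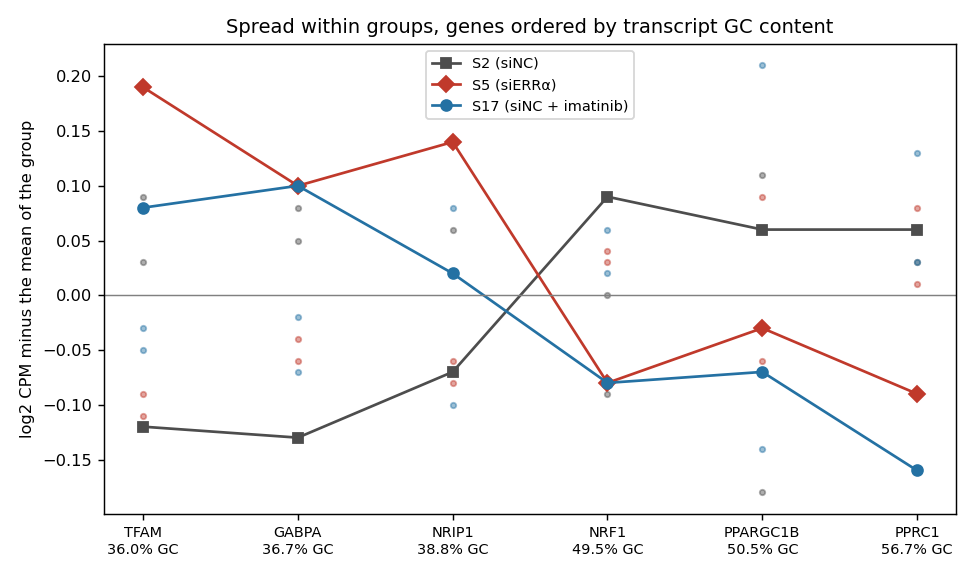
Log2 CPM of each library minus the mean of its group for 6 genes, ordered by transcript GC content. Lines join S2, S5 and S17, and small points are the other libraries. S5 and S17 run from above 0 at TFAM to below 0 at PPRC1 (−0.09 and −0.16), and S2 runs the other way.

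The wider pathway was read from 9 lists, given as counts of called genes with their percent of the tested genes. Over all genes, 12.6% were called lower and 11.4% higher after knockdown. With imatinib these shares were 20.3% and 21.4%, and between siERRα and imatinib 26.6% and 25.6%. A list share near these values says little about the list. Among coregulators of ERRs and PGC-1, 15 of 17 were tested, and 3 fell and 4 rose after knockdown. MED1, the Mediator subunit that nuclear receptors contact, was at 58.8 ± 1.77 CPM in siNC and fell to 38.1 ± 1.48 CPM in siERRα (SD over 3 libraries, log2 fold change −0.63, adjusted p = 4.87e-07). KAT2A, the GCN5 acetyltransferase that acts on PGC-1α, fell by 0.65 (adjusted p = 2.45e-05), and CARM1, an arginine methyltransferase coactivator, rose by 0.34 (adjusted p = 0.00184). With imatinib 4 fell and 2 rose (26.7% and 13.3%), and the rises were 0 without S1, S2 or S16 and 1 without S3 or without S2, S5 and S17 together. FLCN, the folliculin tumor suppressor, fell by 0.54, its partner FNIP1 fell by 0.28 and the arginine methyltransferase PRMT1 fell by 0.36 (adjusted p of 2.88e-06, 0.00335 and 0.000401).

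Regulators upstream of PGC-1 changed in both directions. Of 18 tested, 5 fell and 6 rose after knockdown (27.8% and 33.3%), and 3 fell and 8 rose with imatinib (16.7% and 44.4%). Single libraries moved the rises, to 2 without S4 and 3 without S6 after knockdown and to 5 without S3 with imatinib. CAMK4, a calcium-dependent kinase, fell from 29.7 ± 0.565 to 17.2 ± 0.472 CPM after knockdown (log2 fold change −0.78, adjusted p = 7.17e-08) and rose by 0.38 with imatinib (adjusted p = 0.000114). TFEB, the lysosomal transcription factor, fell by 0.55 (adjusted p = 0.000223). FOXO3 rose by 0.32 after knockdown (adjusted p = 0.00151) and by 0.59 with imatinib (adjusted p = 1.21e-06). The related factor FOXO1 fell by 0.46 after knockdown (adjusted p = 0.00199) and rose by 0.68 with imatinib (adjusted p = 1.11e-05), and the effects differed by 1.14 (adjusted p = 1.2e-08). With imatinib CRTC1, a CREB coactivator, rose by 0.76 (adjusted p = 4.35e-07).

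Of 6 partners of the nuclear respiratory factors, edgeR called 0 after knockdown (1 higher and 0 lower at an unadjusted p under 0.05), and DESeq2 and limma-voom also called 0. After knockdown 1 was higher without S4. With imatinib 3 fell and 1 rose (50.0% and 16.7%), with 1 falling without S1 or S3 and 2 rising without S5 or without S2, S5 and S17 together. SP1 rose by 0.29 (adjusted p = 0.000165), HCFC2, a relative of host cell factor, fell by 0.24 (adjusted p = 0.0096), and GABPB2, a GABP β subunit, fell by 0.64 (adjusted p = 0.0176). GABPB2 lost its call without S1, S3 or S17 (adjusted p of 0.0655, 0.0978 and 0.0896).

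TFAM serves the transcription and replication of mitochondrial DNA. Of 26 other genes of these processes tested, 11 fell and 1 rose with imatinib (42.3% and 3.85%), at a median log2 fold change of −0.20. After knockdown 2 fell and 1 rose (7.69% and 3.85%), at a median of 0.06. Set directly against each other, 15 of 26 were higher in siERRα than with imatinib (57.7%, against 25.6% of all genes). In the same comparison 2 were lower (7.69%, against 26.6%), and 4 without S2, S5 and S17. PNPT1, which degrades and imports RNA in mitochondria, fell from 53.0 ± 4.10 to 32.3 ± 1.34 CPM with imatinib (log2 fold change −0.71, adjusted p = 6.96e-07). TWNK, the replicative helicase, fell by 0.44, and the RNA helicase gene SUPV3L1 fell by 0.35 (adjusted p of 0.000101 and 0.000204). After knockdown EXOG, a mitochondrial nuclease, fell by 0.38 and TOP1MT, the mitochondrial topoisomerase, fell by 0.24 (adjusted p of 0.000937 and 0.00897). TFB1M, a ribosomal RNA methyltransferase, rose by 0.26 (adjusted p = 0.0469) and was not called when any 1 of 7 libraries (S1, S2, S3, S5, S6, S16 or S18) was left out, nor by DESeq2 (adjusted p = 0.05775). The single rise on this list ran from 0 to 3 genes over the alternatives after knockdown and from 0 to 2 with imatinib.

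Mitochondrial protein import was lower with imatinib in 17 of 25 tested genes (68.0%) and higher in 0 (0 also at an unadjusted p under 0.05, in DESeq2 and in limma-voom), at a median log2 fold change of −0.26. HSPA9, the matrix chaperone mortalin, fell to 387.8 ± 3.24 CPM from 549.3 ± 6.42 CPM in siNC (log2 fold change −0.50, adjusted p = 6.78e-07). TIMM10 and TIMM17A, parts of the inner membrane translocases, each fell by 0.51 (adjusted p of 2.35e-06 and 2.86e-06). After knockdown 6 of 25 fell and 2 rose (24.0% and 8.0%), with a median of −0.04. TOMM20, the receptor of the outer membrane translocase, fell from 324.1 ± 13.9 to 170.3 ± 13.2 CPM (log2 fold change −0.93, adjusted p = 5.84e-09). GRPEL1 and HSPE1, cofactors of the matrix chaperones, fell by 0.61 and 0.48 (adjusted p of 4.42e-06 and 6.8e-05). Without S2, S5 and S17, 7 import genes fell and 7 rose after knockdown, against 6 and 2 with all libraries, and without S1 or S6 1 rose and without S3 0. With imatinib 18 then fell.

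Dynamics and mitophagy genes were mixed, with 3 of 15 lower and 1 higher after knockdown and 3 lower and 4 higher with imatinib. These counts were unstable: after knockdown 1 was lower without S1, S3 or S4, and without S2, S5 and S17 there were 5 lower and 3 higher after knockdown and 7 lower with imatinib. DNM1L, the fission GTPase, fell by 0.44 after knockdown (adjusted p = 3.47e-05), the fusion gene MFN1 rose by 0.27 (adjusted p = 0.00583), and OPA1, the inner membrane fusion GTPase, fell by 0.25 (adjusted p = 0.0175) and by 0.44 with imatinib (adjusted p = 8.65e-05). The call of OPA1 after knockdown did not survive the loss of S1, S3, S4 or S6 (adjusted p between 0.0554 and 0.0893). MIEF2, a receptor for the fission machinery, and PINK1, the mitophagy kinase, rose by 0.59 and 0.66 with imatinib (adjusted p of 3.16e-06 and 2.87e-05).

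Textbook target genes of the factors were then counted. Of 16 ERR targets tested, 7 fell and 2 rose after knockdown (43.75% and 12.5%), at a median log2 fold change of −0.14. These counts were 9 and 1 without S2, S5 and S17, with 1 rise whenever a library of either group was dropped. With imatinib 6 fell and 4 rose (37.5% and 25.0%), at a median of −0.03. SIRT3, a mitochondrial deacetylase, fell by 0.46 after knockdown (adjusted p = 9.5e-05), fumarase, encoded by FH, fell by 0.31 (adjusted p = 0.00015), and OGDH, a subunit of the α-ketoglutarate dehydrogenase complex, fell by 0.32 (adjusted p = 0.000429). VEGFA, the angiogenic growth factor, fell from 12.8 ± 0.571 to 5.54 ± 0.365 CPM with imatinib (log2 fold change −1.21, adjusted p = 1.63e-08), and IDH3A, of the citric acid cycle, fell by 0.50 (adjusted p = 5.95e-06). Of 22 targets of NRF1 and GABP, 4 fell and 1 rose after knockdown (18.2% and 4.55%), and 9 fell and 1 rose with imatinib (40.9% and 4.55%). After knockdown 7 fell without S5, and 7 fell and 2 rose without S2, S5 and S17. The rises ranged from 0 to 2 over the alternatives. SDHD, a complex II subunit, and VDAC1, the outer membrane channel, fell by 0.55 and 0.28 after knockdown (adjusted p of 4.88e-05 and 0.00153). With imatinib ALAS1, which starts heme synthesis, fell by 0.88, VDAC1 fell by 0.54, and CYCS, cytochrome c, which is on both target lists, fell by 0.45 (adjusted p of 2.89e-09, 6.66e-07 and 1.31e-05). TOMM20 and TFB1M are also on the NRF1 and GABP list.

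Of the 13 mRNAs encoded by mitochondrial DNA, 11 were higher with imatinib (84.6%) and 1 lower (7.69%, with 0 lower without S1, S2 or S18), at a median log2 fold change of 0.75. MT-CO1 rose from 1045 ± 119.8 to 2659 ± 61.9 CPM (log2 fold change 1.35, adjusted p = 5.8e-11), MT-CO2 rose by 0.75 and MT-CO3 rose by 0.61 (both at an adjusted p of 8e-08). All 3 encode cytochrome c oxidase subunits. Mitochondrially encoded genes took 1.52% of counts with imatinib, against 0.925% in siNC and 0.989% in siERRα. After knockdown 5 of 13 were higher (38.5%) and 0 lower (0 also at an unadjusted p under 0.05, in DESeq2 and in limma-voom), with MT-ND1, MT-ND2 and MT-CO1 higher by 0.51, 0.30 and 0.23 (adjusted p of 0.00179, 0.0112 and 0.0204). Without S2, S5 and S17 the counts of higher mRNAs were 0 after knockdown and 7 with imatinib. The count after knockdown was 1 without S1 or S4, 2 without S5, 3 without S2 or S18 and 9 without S3. Leaving out S1, S4 or S5 alone ended the call of MT-ND2 after knockdown, and leaving out S1 or S4 that of MT-CO1.

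**Figure D5:**
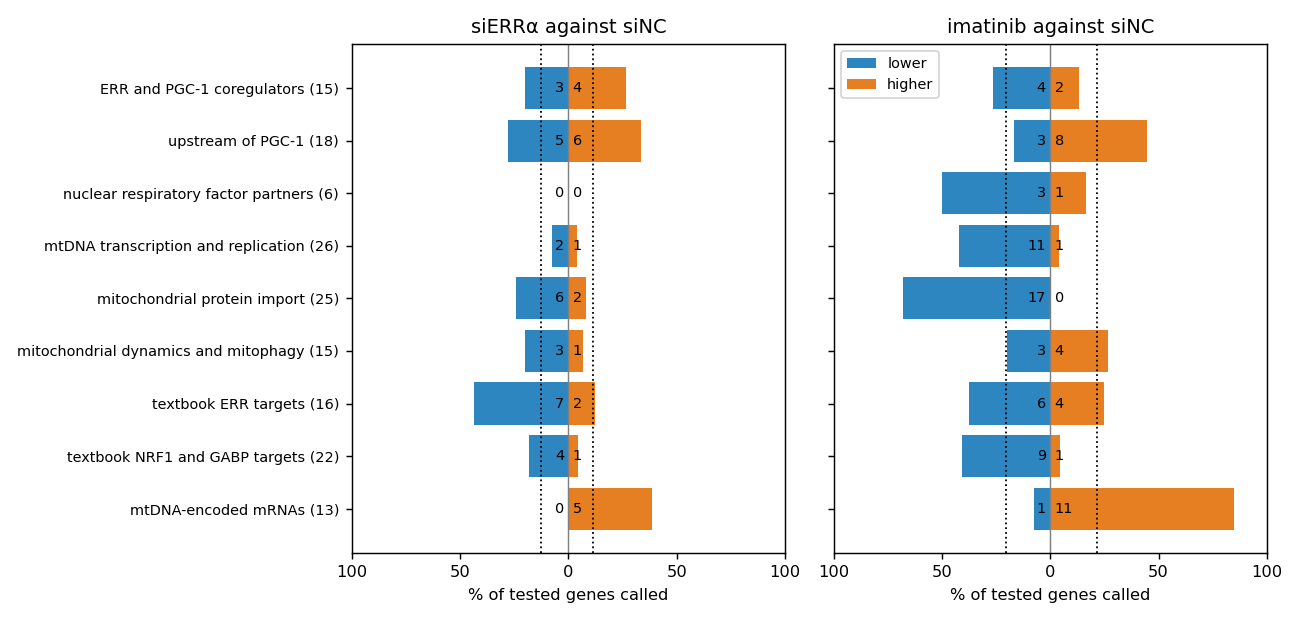
Percent of tested genes called lower (left of 0) and higher (right of 0) for the 9 lists in siERRα against siNC and in imatinib against siNC, with counts in the bars and the number tested in parentheses. Dotted lines give the percent over all genes (12.6 and 11.4, and 20.3 and 21.4). With imatinib, import has 17 of 25 genes lower and the mRNAs of mitochondrial DNA have 11 of 13 higher.

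Genes whose log2 CPM followed ESRRA, PPARGC1B or ESRRAP1 most closely over the 9 libraries were sought among genes with a mean of at least 1 CPM, as a description in which all libraries and groups are shared. For ESRRA these were ACLY, ATP citrate lyase (r = 0.996; 270.2, 167.6 and 258.9 CPM in siNC, siERRα and imatinib), LRRC47 (r = 0.995) and COPRS (r = 0.995; 33.8, 8.67 and 32.4 CPM). For PPARGC1B they were DYNLRB1, a dynein light chain (r = 0.984), the lncRNA ENSG00000291186 (r = 0.979) and NR1D1, the clock receptor REV-ERBα (r = 0.979), which averaged 6.04, 6.005 and 1.56 CPM. For ESRRAP1, whose counts are low, they were IMP3 (r = 0.983), FAM104A (r = 0.978) and OSMR (r = 0.974).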

How the data were processed

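RNA of GIST-T1 cells was sequenced as paired reads on an Illumina instrument. Per the labels, the authors used STAR 2.7.3a for alignment to GRCh38 and featureCounts 2.0.1 for counting, and the deposited values are raw counts for 61209 symbols. The sources used here give neither annotation release nor strand setting, nor how reads with several matches were treated, which bears most on ESRRA and ESRRAP1. The members and gene lists were chosen with earlier results of these data known.

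Counts were filtered with filterByExpr (minimum count 10, minimum total 15), scaled by TMM and tested in R 4.3.3 with edgeR 4.0.16 (robust quasi-likelihood F-test). A single fit held all 9 libraries, and p-values were adjusted by Benjamini-Hochberg over 16976 genes. All p-values in the text are two-sided and from this test unless another is named. Standard errors came from the fold change and its F. CPM are TMM-scaled, and levels per kb used the exonic length of GENCODE 44 on GRCh38. The floor is 3 counts, and intervals of shares are exact (Clopper-Pearson, 95%). Promoters came from RefSeq (GRCh38.p14).

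Named were all 10 members, ESRRB, up to 3 called genes of smallest p per list and comparison with siNC, 3 genes most like each of 3 members, and KIT and ANO1. Alternatives were DESeq2 size factors, the DESeq2 1.42.0 Wald test, limma-voom 3.58.1, no filter, 10 counts in every library, a fit of only the 6 libraries compared, a replicate block, thinning to 37527236 counts, ESRRA and ESRRAP1 summed, each library left out, and, chosen after seeing the data, S2, S5 and S17 left out. The edgeR script was tested on simulated data. Python 3.11.15 with matplotlib 3.10.9 made tables and figures.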

Additional observations from a re-analysis of the deposited data

How the results depend on the processing

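The number of tested ERR and PGC-1 genes called in each comparison stayed within 1.5 times its value under every alternative, at 2 to 4 after knockdown, 4 to 6 with imatinib and 5 to 7 between them. ESRRA, PPARGC1B, PPRC1 and NRIP1 remained lower with imatinib under all alternatives. Values near 0 changed sign. Leaving out S2, S5 and S17 gave 0.034 for PPARGC1B, −0.088 for GABPA and −0.015 for TFAM after knockdown, and 0.067 for NRF1 and −0.103 for GABPA with imatinib, and none of these was called. With single libraries left out (which leaves 2 in a group), GABPA ran from −0.043 to 0.056 after knockdown, −0.056 to 0.046 with imatinib and −0.035 to 0.06 between them, NRF1 from −0.06 to 0.025 with imatinib, and PPARGC1B from −0.094 to 0.041 after knockdown. The cause was not tested. TFAM with imatinib was called in the fit of 6 libraries (−0.166, adjusted p = 0.0405), and PPARGC1A between siERRα and imatinib by limma-voom (1.18, adjusted p = 0.026) and without the filter (0.92, adjusted p = 0.0373). DESeq2 gave no adjusted p for ESRRAP1 after knockdown, and ESRRAP1 was not tested after thinning or with 10 counts in every library.

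Libraries with the same column number did not deviate together in pairs with siNC, while between siERRα and imatinib their correlations were positive. The correlation of deviations from the group mean was −0.177, −0.284 and −0.133 between siNC and siERRα, −0.036, −0.175 and −0.127 between siNC and imatinib, and 0.211, 0.275 and 0.057 between siERRα and imatinib. With the number as a replicate block, 3 of 9 genes were called after knockdown (3652 of all genes, against 4064), 5 with imatinib (6764 against 7072) and 7 between them (8612 against 8865), the added call being PPARGC1A (0.98, adjusted p = 0.0435). After knockdown the block ended the call of TFB1M (adjusted p = 0.05766) and left 3 of 13 mRNAs of mitochondrial DNA higher, against 5. Not every pair was above 0.1, so the number was not taken as a pairing. Without S3, 1163 of all genes were called higher after knockdown, against 1931. Depth limits PPARGC1A, ESRRAP1, ESRRG and ESRRB, where few counts were present.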

Other observations

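The 7-base sequence ATGTTCT was read in 3′ UTRs after an earlier search of these data had pointed to it, so its counts here are a description. Of 2419 tested genes whose canonical 3′ UTR holds it, 30.3% were called lower after ERRα knockdown, against 11.96% of 10329 genes without it, and the medians of the log2 fold change were −0.10 and 0.03. With imatinib, 26.0% and 22.95% were called lower. Longer 3′ UTRs have more room for a copy, and their length was not taken into account. Among the ERR and PGC-1 genes the 3′ UTRs of PPARGC1B, NRF1 and TFAM held 2 copies, those of PPARGC1A and GABPA held 1, and those of ESRRA, ESRRG, PPRC1 and NRIP1 held 0, and none of the 5 holders was called lower after knockdown. A site in each of 3 genes follows, with the heptamer of that site in capitals. The windows lie at chr7:129756770-129756799 (NRF1), chr10:58396329-58396358 (TFAM) and chr5:149848976-149849005 (PPARGC1B), all on the plus strand of GRCh38 in the last exon. The NRF1 window also holds the other NRF1 copy, left in lower case.
NRF1: aaaactatctaATGTTCTttatatgttctt
TFAM: aatgttttcagATGTTCTtgttttagaatc
PPARGC1B: tttccagcttaATGTTCTgtgggtaccttg

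ESRRA itself held 1 copy, in the coding part of exon 6 (chr11:64315224-64315253, plus strand). The matching stretch of ESRRAP1 (chr13:19560290-19560319, minus strand) differed at 4 of 30 bases, and ESRRAP1 held no copy. Capitals below mark the heptamer in ESRRA and the bases at the same place in ESRRAP1. The sequence of the ERRα siRNA is not given in the sources used here. Of the list genes named above as lower after knockdown, TOMM20, CAMK4, EXOG and OPA1 had 1 copy in the 3′ UTR and DNM1L had 2. MED1, KAT2A, TFEB, FOXO1, GRPEL1, HSPE1, TOP1MT, SIRT3, FH, OGDH, SDHD and VDAC1 had 0. Among the 3′ UTRs of 19195 genes, 16.66% held the heptamer. Of all tested genes called lower after knockdown, 733 held it and 1235 did not, so a copy is not particular to the named genes.
ESRRA: gcgagaggagtATGTTCTactaaaggcctt
ESRRAP1: gcgaggggagtACGTTCTactgaaggccct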
